A study of Bos taurus with 22 samples.

Results

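The hexose transporter genes of the jejunal mucosa were described across 22 Holstein steers: SLC5A1 (SGLT1), SLC2A2 (GLUT2) and SLC2A5 (GLUT5). The members were taken by gene name from the table of counts per gene, which gave the name SLC2A5 to 2 separate gene rows, so that 4 of the 27570 genes of the table were members; the 2 SLC2A5 rows were kept apart and are called here by their chromosomes, 14 and 16. Every steer received a continuous abomasal infusion of raw corn starch at 3.94 g/kg of BW per day for 7 d, and the 4 treatments combined casein at 0 or 1.30 g/kg of BW per day (water or casein) with subcutaneous GLP-2 at 0 or 100 µg/kg of BW per day (BSA vehicle or GLP-2). The steers were 10 to 12 months old, weighed 220 to 294.1 kg and were assigned to treatments within 6 blocks of BW. The groups held 5 control steers (water and BSA), 5 GLP-2 steers (water and GLP-2), 6 casein steers (casein and BSA) and 6 casein + GLP-2 steers, and a steer is named by its treatment and block. GLP-2 against BSA therefore compared 11 steers with 11, and casein against water compared 12 with 10. All groups carried the starch load, so no steer showed these genes without infused starch, and the mucosa was scraped from 1 jejunal segment per steer, with all cell layers of the scraping in the same RNA.

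SGLT1 carries glucose and galactose together with sodium across the brush border of the enterocyte, GLUT5 carries fructose across the same membrane, and GLUT2 lets hexoses leave the cell toward the blood. The sodium gradient that drives SGLT1 is kept by the Na+/K+-ATPase of the basolateral membrane. Glucose reaches these carriers in the jejunum after α-amylase and the brush border carbohydrases have broken down starch, and GLP-2 is a gut peptide known for stimulating growth of the intestinal mucosa.

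Total counts ranged from 8809666 to 28447810 per library (median 12028560.5), and the 4 members together took 0.00863% to 0.262% of the counts of a library. The libraries differed in the levels of cell type markers. Follicle-rich scrapings, those with a B cell follicle score (mean over its marker genes of log2 CPM, the count scaled for library size) above 6, were found in 4 steers, all given BSA: control steers 1, 3 and 5 and casein steer 3. The summed level of the 13 follicle markers was 54.3 to 2351 CPM in the BSA steers and 35.4 to 89.5 CPM in the GLP-2 steers. The 20 villus enterocyte markers, which define the absorptive cell that carries these transporters, summed to 3248 to 59674 CPM in the BSA steers and 24336 to 85074 CPM in the GLP-2 steers, and none of them was at 0 in either group. The 2 markers of ileal bile acid handling, FABP6 and SLC10A2, summed to 0.418 to 223.6 CPM in the BSA steers and 0.303 to 9.79 CPM in the GLP-2 steers, and the 8 smooth muscle markers to 36.8 to 1557 CPM and 35.2 to 792 CPM. In bulk RNA, fewer cells of a type and less RNA per cell cannot be told apart, and this holds for each difference below.

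SLC5A1 was by far the most abundant of the members. Per kilobase of gene (FPKM, fragments per kilobase of gene, scaled for library size), its mean over the 22 steers was 255 ± 238 (SD), rank 326 of the 27570 genes. SLC2A2 averaged 35.1 ± 29.0 FPKM, rank 2484. The SLC2A5 rows averaged 5.84 ± 4.51 FPKM on chromosome 14 and 5.85 ± 6.16 FPKM on chromosome 16, at ranks 8754 and 8746. Within a steer, SLC5A1 held 72.7% to 91.6% of the FPKM of the 4 rows, with a median of 83.2%. The spread between steers was wide: SLC5A1 ran from 18.9 to 920.3 FPKM, a 48.7-fold range, and SLC2A2 from 0.892 to 95.5 FPKM, a 107-fold range. In genome build ARS-UCD1.2, SLC5A1 (ENSBTAG00000012851) spans chr17:70570574-70620771, SLC2A2 (ENSBTAG00000005386) chr1:96452471-96483056, and the SLC2A5 rows chr14:82359771-82387445 (ENSBTAG00000007302) and chr16:44379636-44407097 (ENSBTAG00000034323). All 4 are protein-coding genes on the plus strand, and none overlaps another gene of the table. Each gene has 1 count per steer. The gene lengths behind FPKM, 3263, 3185, 2518 and 2256 bases in the same order, are shorter than these spans.

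Among their families, SLC5A1 and SLC2A2 had the highest mean FPKM. In the SGLT family SLC5A1 was followed by SLC5A4, the SGLT3 gene, at 109 ± 79.5 FPKM and by SLC5A12, a sodium-coupled carrier of lactate and other monocarboxylates, at 28.4 ± 17.7 FPKM, while SLC5A2, the SGLT2 gene known from the kidney, had 5.05 ± 1.06 FPKM. In the GLUT family SLC2A2 was followed by SLC2A8 at 8.59 ± 2.92 FPKM and SLC2A3, the neuronal-type glucose carrier GLUT3, at 6.33 ± 2.47 FPKM. Each SLC2A5 row came next, then SLC2A6 at 5.25 ± 3.97 FPKM and SLC2A1, the widespread GLUT1, at 4.95 ± 1.93 FPKM. The ranges over steers of SLC2A8, SLC2A3, both SLC2A5 rows, SLC2A6 and SLC2A1 overlapped one another. Both SLC2A5 rows summed to a mean of 11.7 ± 6.22 FPKM.

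**Figure D1:**
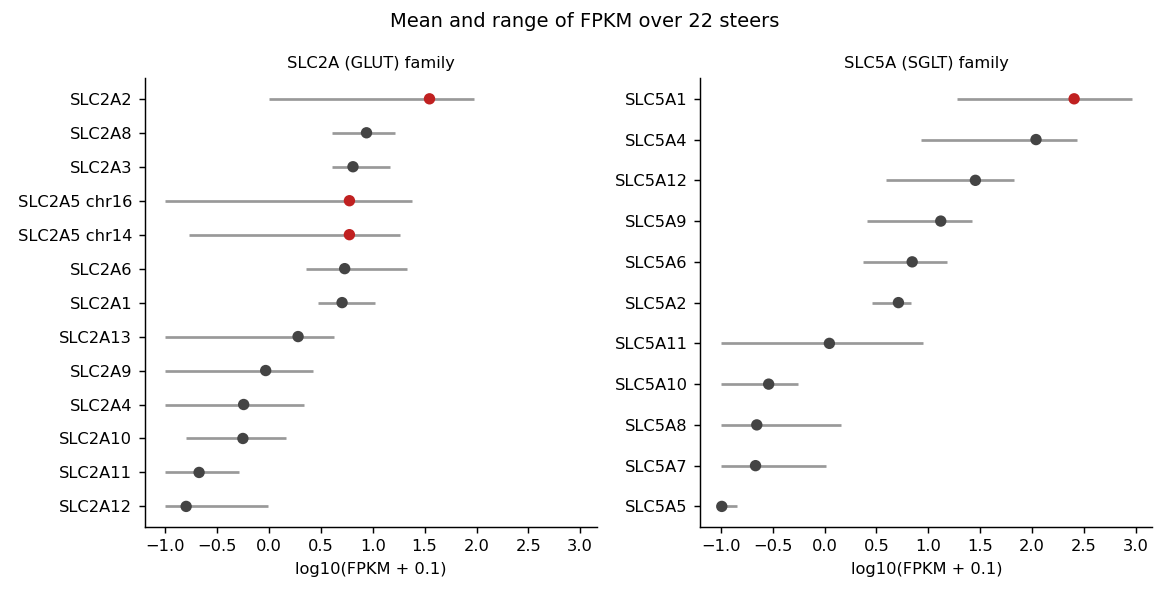
Mean (points) and range over 22 steers (lines) of the deposited FPKM of the SLC2A (GLUT) and SLC5A (SGLT) family genes, on a log10(FPKM + 0.1) axis, with the 4 members in red. SLC5A1 and SLC2A2 have the highest means of their families, and the lines of both SLC2A5 rows reach down to 0.0695 and 0 FPKM.

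SLC5A1 rose with GLP-2. In the control steers SLC5A1 stood at 106, 310.0, 51.9, 227 and 18.9 FPKM in blocks 1 to 5. The GLP-2 steers stood at 165, 333, 106, 178 and 316 FPKM in blocks 1, 3, 4, 5 and 6. The casein steers ran from 24.6 to 287 FPKM with a median of 95.7, and the casein + GLP-2 steers from 191 to 920.3 FPKM with a median of 545. All 11 GLP-2 steers were above the BSA median, 6 of them were above every BSA steer, and 6 BSA steers were below every GLP-2 steer, so the pooled groups overlapped only in part. The mean was 382 ± 269 FPKM (SD, n = 11) with GLP-2 and 128 ± 102 FPKM (SD, n = 11) with BSA. On the counts the log2 fold change was 1.58 (SE 0.461, 95% confidence interval 0.63 to 2.53), a 2.99-fold difference, with an adjusted p of 0.0314 (edgeR's quasi-likelihood test, Benjamini-Hochberg over 13928 genes). In this comparison 13.5% of the genes tested passed the same threshold of 0.05 and 5.13% passed it as higher with GLP-2, and SLC5A1 was the only member to pass.

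In edgeR the call for SLC5A1 lay close to the threshold, and it remained in 17 of the 22 fits that left out 1 steer. DESeq2, which called 2999 genes in this comparison, gave a log2 fold change of 1.58 with an adjusted p of 0.00475. With the block in the edgeR model the log2 fold change was 1.69 with an adjusted p of 0.0509. It lost the call without casein + GLP-2 steer 1 (1.35, adjusted p = 0.0638), casein + GLP-2 steer 2 (1.44, adjusted p = 0.0540), casein + GLP-2 steer 3 (1.47, adjusted p = 0.0616), control steer 1 (1.56, adjusted p = 0.0564) or control steer 3 (1.5, adjusted p = 0.0603). Without the 4 follicle-rich steers it was 1.19 with an adjusted p of 0.337.

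**Figure D2:**
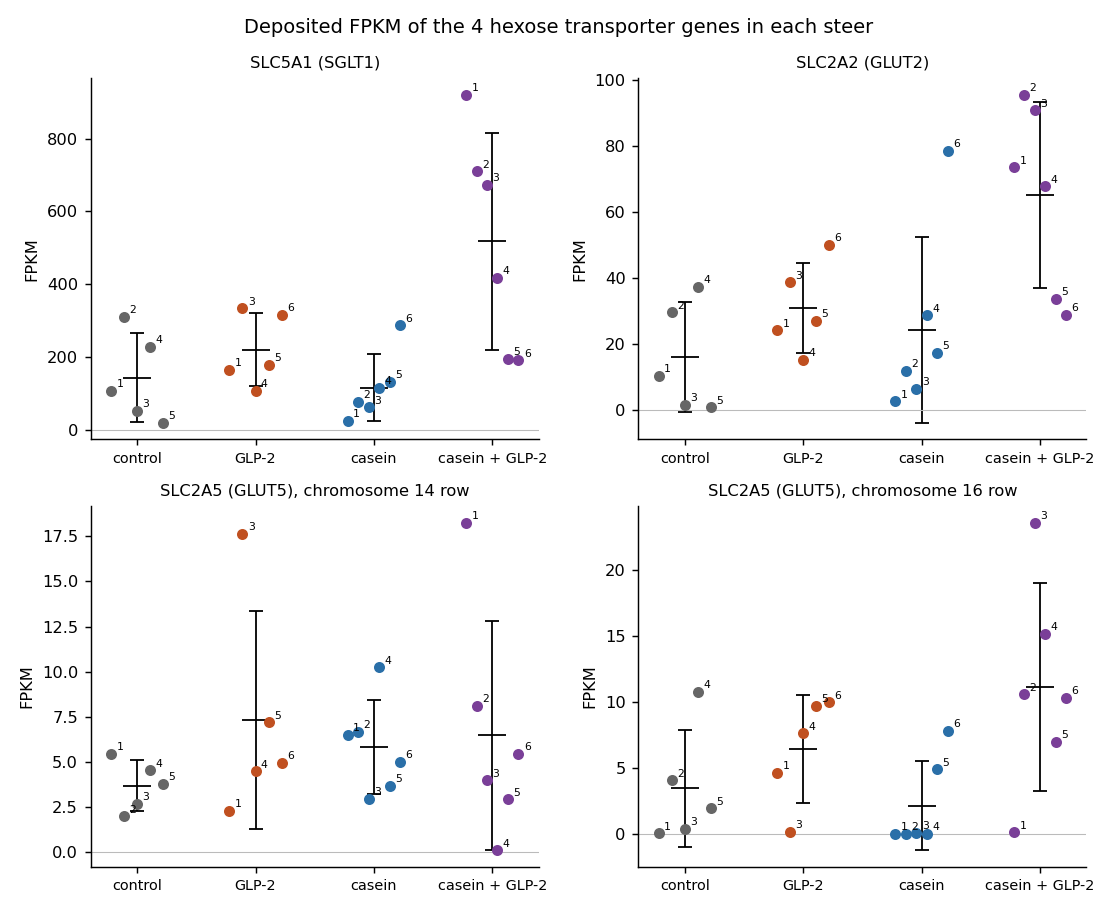
Deposited FPKM of each member in each of the 22 steers by treatment, with the block number beside each point and the mean ± SD as horizontal and vertical black lines. For SLC5A1, 4 casein + GLP-2 steers sit between 417 and 920.3 FPKM, above all other steers, and on the chromosome 16 row of SLC2A5 the lowest steers of each treatment sit at or near 0.

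SLC2A2 had a positive log2 fold change that did not pass the threshold in the main test. It stood at 10.5, 29.7, 1.73, 37.5 and 0.892 FPKM in control steers 1 to 5, and at 24.2, 38.8, 15.2, 27.1 and 50.2 FPKM in the GLP-2 steers of blocks 1, 3, 4, 5 and 6. Control steers 3 and 5, the lowest of all, had 69 and 36 counts. The casein steers ran from 2.75 to 78.5 FPKM (median 14.7) and the casein + GLP-2 steers from 29.0 to 95.5 FPKM (median 70.7). All 11 GLP-2 steers were above the BSA median, but only 2 were above casein steer 6, the highest BSA steer. The mean was 49.6 ± 28 FPKM (SD, n = 11) with GLP-2 and 20.6 ± 22.9 FPKM (SD, n = 11) with BSA, and the log2 fold change was 1.27 (SE 0.548, 95% confidence interval 0.14 to 2.40; adjusted p = 0.106 in edgeR). On log2(FPKM + 1), limma gave a difference of 1.81 with an adjusted p of 0.0336, and on log2(FPKM + 0.1) one of 2.00 with an adjusted p of 0.0375. Without casein steer 6 the edgeR value was 1.75 with an adjusted p of 0.0249, and without the follicle-rich steers 0.74 with an adjusted p of 0.457.

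Counts named SLC2A5 were split between 2 rows in a way that differed from steer to steer. On the chromosome 16 row, 8 steers had 0 to 10 counts, which was 0% to 10.6% of their SLC2A5 counts, while 13 steers had 55 to 748 counts there, 31.4% to 84.2% of the total. Casein + GLP-2 steer 4 had the opposite split, with 391 counts on chromosome 16 and 2 on chromosome 14, a share of 99.5% of the counts of both rows (95% exact binomial interval 98.2% to 99.9%, counting error only). The steers with a share under 15% were control steers 1 and 3, GLP-2 steer 3, casein steers 1 to 4 and casein + GLP-2 steer 1, which made 6 of 11 steers given BSA and 2 of 11 given GLP-2. In casein steers 1, 2 and 4 no count fell on chromosome 16, against 196, 152 and 277 counts on chromosome 14, and the upper bound of the exact interval of the share there was 1.86%, 2.40% and 1.32%. The steers with little on chromosome 16 differed widely in their SLC2A5 counts as a whole. GLP-2 steer 3 had 1058 counts and casein + GLP-2 steer 1 had 624 counts on chromosome 14, the highest values of that row, whereas control steer 3, casein steer 3 and casein steer 2 had the lowest totals of both rows among the 22 steers, with 94, 127 and 152 counts. These counts are not scaled for library size. GLP-2 steer 3 had the largest library, with 28447810 counts, and casein steer 2 a small one with 9003688. The bovine RefSeq table gives the symbol SLC2A5 (GLUT5) to the chromosome 14 gene and the unnamed symbol LOC107131287 to the chromosome 16 gene. How reads that match both genes were counted is not given in the sources used here, so the value of either row alone is uncertain.

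**Figure D3:**
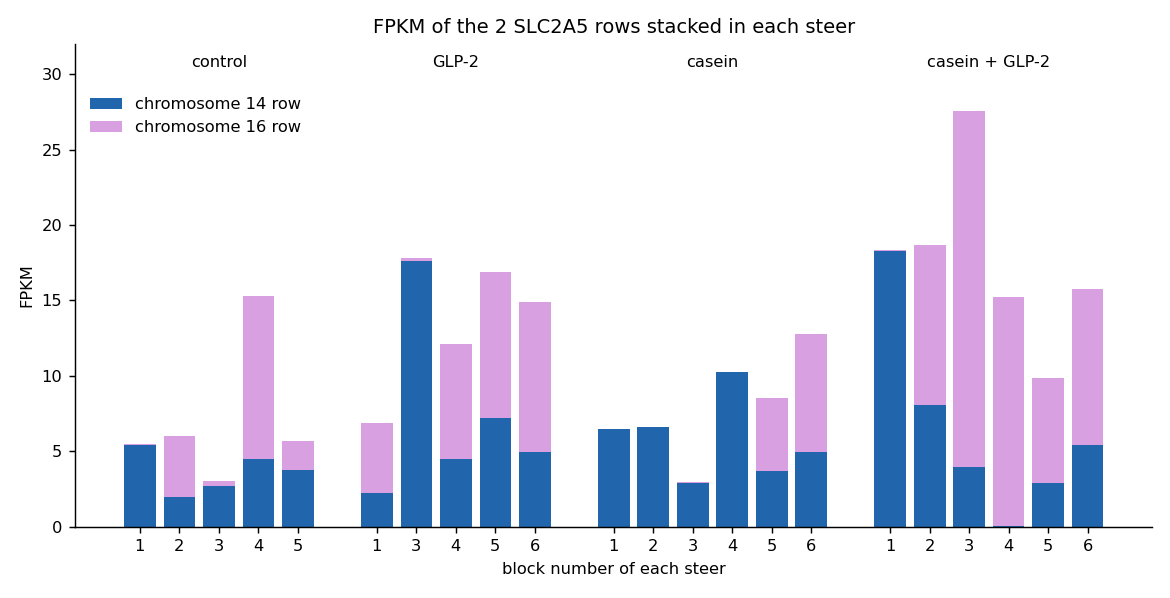
Stacked bars of the deposited FPKM of the chromosome 14 (blue) and chromosome 16 (violet) rows of SLC2A5 in each steer, ordered by treatment and block. The stacks of the GLP-2 and casein + GLP-2 steers reach 6.87 to 27.6 FPKM and those of the BSA steers 2.99 to 15.3 FPKM, whichever row holds the counts.

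Taken separately, neither SLC2A5 row passed the threshold for GLP-2 against BSA. The chromosome 14 row stood at 5.43, 1.96, 2.67, 4.52 and 3.76 FPKM in control steers 1 to 5 and at 2.25, 17.6, 4.47, 7.19 and 4.95 FPKM in GLP-2 steers 1, 3, 4, 5 and 6. It ran from 2.93 to 10.2 FPKM in the casein steers (median 5.74) and from 0.0695 to 18.3 FPKM in the casein + GLP-2 steers (median 4.70). The groups overlapped across most of their range, and its log2 fold change was 0.52 (SE 0.459, adjusted p = 0.425 in edgeR). The chromosome 16 row stood at 0.0218, 4.06, 0.355, 10.8 and 1.92 FPKM in the control steers and at 4.62, 0.149, 7.62, 9.70 and 9.97 FPKM in the GLP-2 steers. It ran from 0 to 7.80 FPKM in the casein steers (median 0.0262) and from 0.0980 to 23.6 FPKM in the casein + GLP-2 steers (median 10.5). Its log2 fold change of 1.71 carried an SE of 0.904 and an adjusted p of 0.182 (edgeR).

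Summed over both rows, SLC2A5 was higher with GLP-2. This sum was made after the split had been seen. It stood at 5.46, 6.01, 3.03, 15.3 and 5.68 FPKM in control steers 1 to 5, and at 6.87, 17.8, 12.1, 16.9 and 14.9 FPKM in GLP-2 steers 1, 3, 4, 5 and 6. The casein steers ran from 2.99 to 12.8 FPKM (median 7.59) and the casein + GLP-2 steers from 9.86 to 27.6 FPKM (median 17.1). All 11 GLP-2 steers were above the BSA median, 6 were above every BSA steer, and 7 BSA steers were below every GLP-2 steer. The mean was 15.8 ± 5.37 FPKM (SD, n = 11) with GLP-2 and 7.56 ± 3.86 FPKM (SD, n = 11) with BSA, and the log2 fold change of the summed counts was 1.04 (SE 0.257, 95% confidence interval 0.51 to 1.57), a 2.05-fold difference with an adjusted p of 0.0226 (edgeR). The call remained with the block in the model (1.10, adjusted p = 0.0481) and without each of the 22 steers in turn (adjusted p 0.00973 to 0.0473). Without the 4 follicle-rich steers it was lost (0.71, 95% confidence interval 0.21 to 1.21, adjusted p = 0.319). No fit of the sum held a marker score.

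Postruminal casein infusion gave no member a difference past the threshold. The log2 fold change of casein against water was 0.81 for SLC5A1 (95% confidence interval -0.30 to 1.91), 0.92 for SLC2A2 (-0.27 to 2.12), 0.16 for the chromosome 14 row of SLC2A5 (-0.82 to 1.13) and 0.43 for the chromosome 16 row (-1.57 to 2.42), each with an adjusted p of 0.994 or 0.995 (edgeR). The upper bounds correspond to 3.75-fold for SLC5A1 and 4.35-fold for SLC2A2. By edgeR 0% of the 14096 genes tested passed for casein, 3.36% had an unadjusted p up to 0.05, and DESeq2 called 5 genes. SLC5A1 averaged 317 ± 297 FPKM (SD, n = 12) with casein and 181 ± 113 FPKM (SD, n = 10) with water, but only 7 of the 12 casein steers were above the water median.

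Among the steers given casein, SLC5A1 was highest in those that also received GLP-2. Casein against control gave SLC5A1 a log2 fold change of -0.29 (SE 0.606, unadjusted p = 0.641 in edgeR; 0.19 without control steer 2), whereas casein + GLP-2 against GLP-2 gave 1.22 (SE 0.624, unadjusted p = 0.0641 in edgeR). Likewise GLP-2 against control gave 0.62 (SE 0.637, unadjusted p = 0.338 in edgeR), whereas casein + GLP-2 against casein gave 2.13 (SE 0.604, 95% confidence interval 0.88 to 3.38, unadjusted p = 0.0019 in edgeR), and 4 of the 6 casein + GLP-2 steers were above every casein steer. None of these differences passed the threshold after adjustment over 15086 genes; the last had an adjusted p of 0.118 in edgeR and of 0.0162 in DESeq2. These comparisons share steers with one another. The difference between the 2 responses, the casein by GLP-2 interaction, was 1.5 on the log2 scale (SE 0.864, 95% confidence interval -0.29 to 3.29, unadjusted p = 0.096, adjusted p = 0.996 in edgeR). Its interval included 0, so the 2 responses were not told apart. Without the follicle-rich steers, which left 2 control steers, GLP-2 against control turned to -0.30 for SLC5A1 and to -0.12 for SLC2A2, and the interaction for SLC5A1 was 2.33 (unadjusted p = 0.0127, adjusted p = 0.319 in edgeR).

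For SLC2A2 the 2 responses to GLP-2 were closer to each other, with log2 fold changes of 0.95 (SE 0.796) against control and 1.40 (SE 0.733) within casein, and the interaction was 0.44 (SE 1.07). The chromosome 14 row of SLC2A5 gave 1.00 (SE 0.686) and 0.12 (SE 0.621), the chromosome 16 row 0.92 (SE 1.36) and 2.36 (SE 1.29), and their sum 0.96 (SE 0.382) and 1.07 (SE 0.350). The sum thus had nearly the same size with and without casein, and its interaction was 0.11 (95% confidence interval -0.96 to 1.17). By edgeR 0% of genes passed the adjusted threshold in each of the 4 pairwise comparisons and in the interaction. At an unadjusted p up to 0.05 the shares were 13.9% for GLP-2 against control, 24.1% for casein + GLP-2 against casein, 5.66% for casein against control, 2.64% for casein + GLP-2 against GLP-2 and 4.28% for the interaction. DESeq2 called 289, 891, 10, 5 and 2 genes in the same order.

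**Figure D4:**
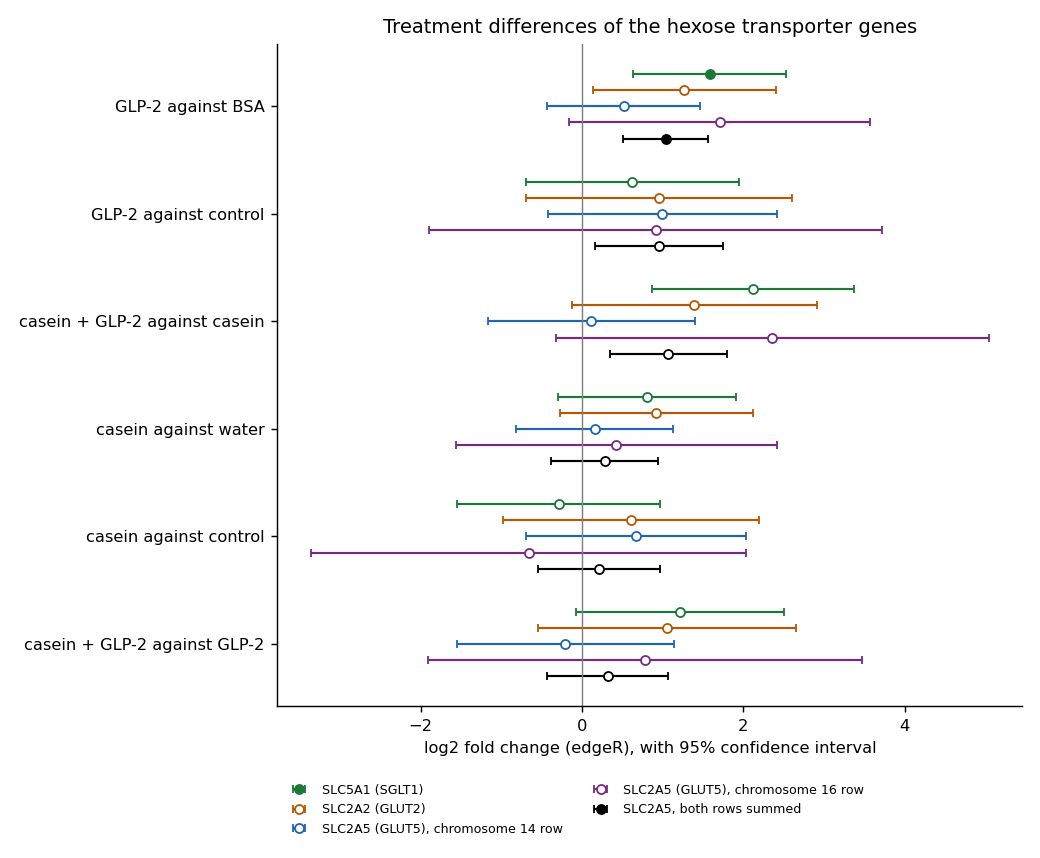
Log2 fold changes with 95% confidence intervals (edgeR) of the 4 members and of the SLC2A5 sum in 6 comparisons; filled points have an adjusted p up to 0.05. Only SLC5A1 at 1.58 and the SLC2A5 sum at 1.04, both in GLP-2 against BSA, are filled.

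Within blocks, the GLP-2 steer was compared with the BSA steer of the same BW block and the same infusion, which gave 10 pairs. SLC5A1 was higher with GLP-2 in 8 of 10 pairs, with log2 CPM differences from -1.13 to 5.29 and a median of 2.29. It was lower with GLP-2 in 1 of the 4 water pairs and 1 of the 6 casein pairs. SLC2A2 was also higher in 8 of 10 pairs (median 2.11), the chromosome 14 row of SLC2A5 in 6 of 10 (median 0.22), the chromosome 16 row in 8 of 10 (median 1.85) and the SLC2A5 sum in 9 of 10 (median 0.91). Casein steers were above the control steer of their block in 2 of 5 pairs for both SLC5A1 and SLC2A2, and casein + GLP-2 steers were above the GLP-2 steer of their block in 4 of 5 pairs for both genes.

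The ratio of SLC5A1 to SLC2A2 varied less between steers than either gene did. SLC5A1 FPKM was 3.65 to 29.9 times SLC2A2 FPKM in the 22 steers, with a median of 6.80 in the GLP-2 steers (5.78 to 12.5) and 8.94 in the BSA steers (3.65 to 29.9). The log2 ratio of SLC2A2 to SLC5A1 was -2.85 ± 0.31 with GLP-2 and -3.10 ± 0.88 with BSA (SD, n = 11 each), a difference of 0.26 (two-sided permutation test, p = 0.383, adjusted p = 0.460 over 6 pairs of rows). The chromosome 14 row of SLC2A5 had lower ratios to both with GLP-2: its log2 ratio to SLC5A1 differed by -1.78 (permutation p = 0.0199, adjusted p = 0.0653) and its ratio to SLC2A2 by -2.03 (permutation p = 0.0218, adjusted p = 0.0653). Neither passed after adjustment, and none of the 6 pairs did; 3 pairs passed without GLP-2 steer 3 or without casein + GLP-2 steer 1, and 2 passed without casein steer 6 or without control steer 2. The ratio of the SLC2A5 sum to SLC5A1 differed by -0.61 (permutation p = 0.156) and to SLC2A2 by -0.86 (permutation p = 0.105).

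Across the 22 steers SLC5A1 and SLC2A2 rose and fell together. Over log2 CPM, Pearson's r was 0.941 and Spearman's rho 0.959 (permutation p = 1e-05 for both, the smallest that 100000 resamples can give; adjusted p = 3.86e-05 and 4.5e-05 over 27 relations). The relation held within the GLP-2 steers (r = 0.959), within the BSA steers (r = 0.931), without the 2 farthest steers (r = 0.947) and among deviations from the treatment means (r = 0.944). The chromosome 14 row of SLC2A5 was not tied to SLC5A1 in this way (r = 0.030, permutation p = 0.891; rho = 0.167, permutation p = 0.455). The SLC2A5 sum was (r = 0.753, permutation p = 4e-05; rho = 0.781, permutation p = 3e-05; r = 0.794 without the 2 farthest steers, 0.686 within GLP-2 and 0.53 within BSA). No relation was tested for the chromosome 16 row, since its steers fell into separate clusters. Its Spearman's rho over the 22 steers was 0.582 with SLC5A1 and 0.621 with SLC2A2.

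SLC5A1 and SLC2A2 also varied with the marker scores of the scrapings. SLC5A1 had an r of 0.872 and a rho of 0.880 with the villus enterocyte score (permutation p = 1e-05 for both, adjusted p = 3.86e-05 and 4.5e-05). That r was 0.95 within the BSA steers, 0.487 within the GLP-2 steers and 0.769 without the 2 farthest steers. With the smooth muscle score r was -0.823 and rho -0.810 (permutation p = 1e-05 for both), with -0.846 within BSA, -0.822 within GLP-2 and -0.744 without the 2 farthest steers. With the plasma cell score r was -0.832 and rho -0.782 (permutation p = 1e-05 and 5e-05), and with the crypt and proliferation score -0.803 and -0.791 (permutation p = 1e-05 and 4e-05). SLC2A2 had an r of 0.887 and a rho of 0.861 with the villus enterocyte score (permutation p = 1e-05 for both), with 0.928 within BSA, 0.409 within GLP-2 and 0.791 without the 2 farthest steers. The SLC2A5 sum had an r of 0.692 with the villus enterocyte score, 0.841 with the pan-epithelial score and -0.786 with the follicle score. With the crypt and proliferation score its r was -0.735, with the plasma cell score -0.700 and with the T cell score 0.044. With the ileal bile acid score, which rested on FABP6 alone, r was -0.665 for SLC5A1 and -0.727 for SLC2A2 (permutation p = 0.00064 and 0.0001). Among deviations from the treatment means both lost the call (rho -0.523 and -0.554, adjusted permutation p = 0.0634 for both). With the T cell score neither gene passed over the 22 steers (r = 0.344, permutation p = 0.118 for SLC5A1; r = 0.290, permutation p = 0.191 for SLC2A2). Among deviations from the treatment means, SLC5A1 had a rho of 0.484 with it (adjusted p = 0.0480, permutation test). Without the follicle-rich steers r with it was 0.49 for SLC5A1 and 0.52 for SLC2A2 (adjusted permutation p = 0.0630 and 0.0532). In the same steers rho was only 0.292 and 0.352 (adjusted permutation p = 0.343 and 0.244). Of the 27 relations computed for SLC5A1, SLC2A2 and the chromosome 14 row, 16 had an adjusted p of rho up to 0.05, and 15 of them involved SLC5A1 or SLC2A2; the other was the chromosome 14 row with the pan-epithelial score (rho = 0.481, adjusted p = 0.0421), whose r of 0.233 did not pass (permutation p = 0.270), and whose rho lost the call in 11 of the 22 sets that left out a steer, with adjusted p up to 0.120.

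**Figure D5:**
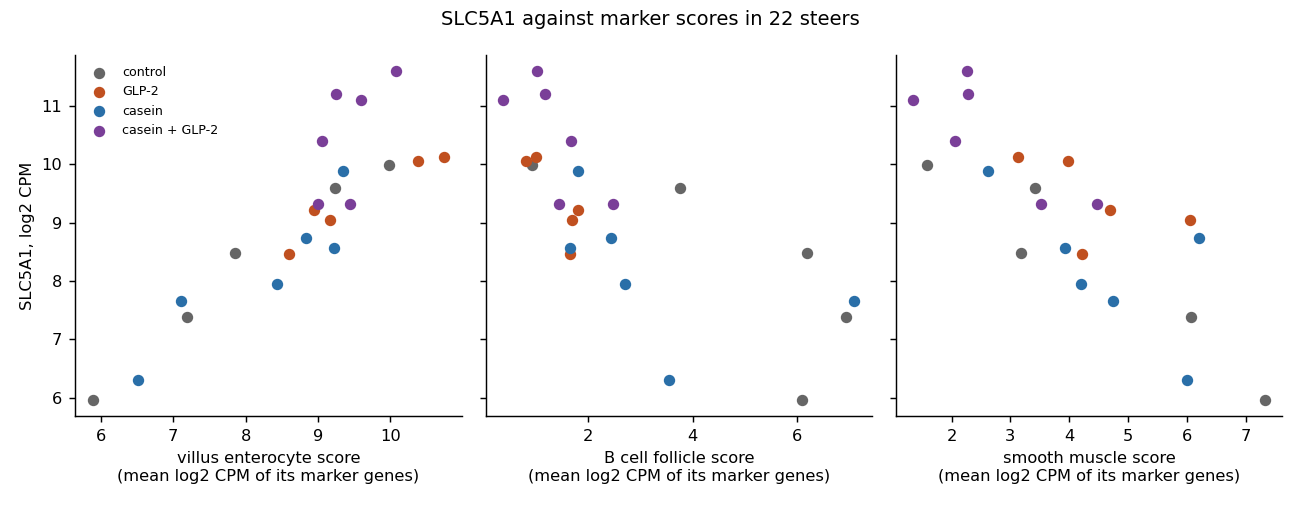
SLC5A1 (log2 CPM) against the villus enterocyte, B cell follicle and smooth muscle scores (mean log2 CPM of the marker genes) in 22 steers coloured by treatment. SLC5A1 rises with the villus score (r = 0.872) and falls with the smooth muscle score (r = -0.823), and 4 BSA steers stand apart at follicle scores above 6.

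The follicle-rich steers had low levels of SLC5A1 and SLC2A2. SLC5A1 was 18.9 to 106 FPKM in the 4 of them (median 56.4), 24.6 to 310.0 FPKM in the other 7 BSA steers (median 131) and 106 to 920.3 FPKM in the 11 GLP-2 steers (median 316). SLC2A2 was 0.892 to 10.5, 2.75 to 78.5 and 15.2 to 95.5 FPKM in the same order, and the SLC2A5 sum 2.99 to 5.68, 6.01 to 15.3 and 6.87 to 27.6 FPKM. Among the other 18 steers, SLC5A1 still fell with the follicle score (r = -0.690, permutation p = 0.00143; rho = -0.641, permutation p = 0.00486), rose with the villus score (r = 0.785, permutation p = 0.00037; rho = 0.789, permutation p = 0.00024) and followed SLC2A2 (r = 0.945 and rho = 0.934, permutation p = 1e-05 for both). When the villus enterocyte score of each steer entered the model, the GLP-2 difference of SLC5A1 was 0.70 on the log2 scale (95% confidence interval -0.02 to 1.43, adjusted p = 0.963 in edgeR). It was 0.75 (adjusted p = 0.606) with the pan-epithelial score and 0.71 (adjusted p = 0.9998) with the follicle score, and edgeR called 0 genes in each of these 3 fits. For SLC2A2 the same fits gave 0.40, 0.41 and 0.15. In the model of 4 treatments with the villus score, SLC5A1 had 1.27 for casein + GLP-2 against casein (95% confidence interval 0.61 to 1.92, adjusted p = 0.551 in edgeR). For GLP-2 against control the same model gave SLC5A1 -0.33 (-1.04 to 0.38). Among the markers themselves, 20 of 20 villus enterocyte genes had a positive log2 fold change with GLP-2, 2 of them past the threshold, with a median of 1.00 against 0.01 for all genes tested. All 11 follicle genes tested had negative values, 10 of them past the threshold, with a median log2 fold change of -4.46. Of the 11 pan-epithelial genes 3 rose past the threshold, and 2 of the 9 crypt and proliferation genes fell past it. So did 2 of the 5 plasma cell genes, 1 of the 8 T cell genes and FABP6, which fell by 4.43. None of the 8 smooth muscle genes passed, although all 8 had negative values. Over all genes tested, 13.5% were called, with 5.13% higher and 1166 of 13928 genes lower with GLP-2. The counts of these short lists were not tested against those shares.

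The genes whose pattern over the 22 steers was most like that of SLC5A1 were LIPH (Spearman's rho 0.988 of log2 CPM), CD46 (0.985), CXADR (0.977), TMEM236 (0.973) and MUC13, an epithelial mucin (0.972), out of 13928 genes. SLC2A2 stood at rank 25 among them with 0.959. For SLC2A2 the list was led by TMEM236 (0.972), MTSS1 (0.963) and MUC13 (0.960), and SLC5A1 and PPIP5K2 followed at 0.959. The chromosome 14 row of SLC2A5 reached lower values, with COMMD6 (0.794), CISD1 (0.780), COMTD1 (0.778), EMC3 (0.775) and MGC148714 (0.772). The chromosome 16 row was led by ANKRD42 (0.776), CBLN3 (0.752), VPS9D1 (0.741), SLC16A4 (0.729) and TMEM116 (0.728). The 2 rows had a rho of -0.280 with each other. Their sum, in contrast, reached 0.968 with CREB3L1, 0.954 with CLDN7, the tight junction gene claudin 7, 0.932 with EPHA1, 0.931 with B4GALNT1 and 0.930 with SULF2.

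Among the other members of the 2 families, 1 of 6 tested SGLT genes and 1 of 7 tested GLUT genes rose with GLP-2 and none fell, against 5.13% called higher and 13.5% called in all over the genes tested. In the SGLT family the gene was SLC5A12, with a log2 fold change of 1.31 (SE 0.32, adjusted p = 0.0226 in edgeR), from 16.4 ± 9.59 FPKM with BSA to 40.4 ± 15.8 FPKM with GLP-2. SLC5A4 had 0.83 (adjusted p = 0.188) and SLC5A9, a glucose and mannose carrier, 0.78 (adjusted p = 0.0924), and the median of the 6 was 0.81. In the GLUT family it was SLC2A9, the urate carrier, with 1.94 (SE 0.62, adjusted p = 0.0425 in edgeR), at only 0.337 ± 0.362 FPKM with BSA and 1.31 ± 0.498 FPKM with GLP-2. The GLUT genes found in many cell types had negative values that did not pass: SLC2A1 -0.55 (adjusted p = 0.0551) and SLC2A3 -0.45 (adjusted p = 0.0916). The median of the 7 was -0.27.

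For GLP-2 against BSA, all 4 brush border carbohydrases and 3 of the 4 tested sodium pump genes had positive values, where 50.7% of all genes tested did. Over all genes tested 13.5% were called and 5.13% were called higher, and these short lists were not tested against those shares. Of the 4 brush border carbohydrases, LCT, which encodes lactase, rose by a log2 fold change of 1.87 (SE 0.59, adjusted p = 0.0407 in edgeR), from 167 ± 192 to 607 ± 395 FPKM. MGAM (maltase-glucoamylase) had 1.29 (adjusted p = 0.0768), TREH (trehalase) 0.82 (adjusted p = 0.0524) and SI (sucrase-isomaltase) 0.74 (adjusted p = 0.112). None of the 4 tested sodium pump genes passed. The β subunits ATP1B1 and ATP1B3 had 0.81 (adjusted p = 0.0814) and 0.54 (adjusted p = 0.188), while FXYD5, a regulatory subunit, had -0.41 (adjusted p = 0.0916).

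Among 17 genes of transcription factors known to act on hexose transporter or carbohydrase genes, 5 rose with GLP-2 and none fell, where 5.13% of all genes tested were called higher. Among those that rose, HNF4A had a log2 fold change of 0.80 (adjusted p = 0.0346 in edgeR), HNF4G 0.93 (adjusted p = 0.0454), GATA6 0.83 (adjusted p = 0.0257) and KAT2B, a histone acetyltransferase, 0.63 (adjusted p = 0.0230). CDX2 (0.38, adjusted p = 0.143), GATA4 (0.56, adjusted p = 0.0728) and MLXIPL, the glucose-responsive factor ChREBP (-0.09, adjusted p = 0.867), did not pass. The median of the 17 was 0.31. With the villus, pan-epithelial or follicle score in the model, or without the follicle-rich steers, edgeR called 0 of all genes, these included. With casein 0 genes of these lists passed the threshold.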

How the data were processed

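Total RNA of jejunal mucosal scrapings was sequenced as strand-specific, poly(A)-selected libraries. Per the labels, the authors aligned reads to ARS-UCD1.2 with HISAT2 (version 2.0.5) and counted reads per gene with featureCounts (version 1.5.0-p3); the submitters' processing notes also name StringTie (version 1.3.3b) and DESeq2 (version 1.20). The deposited table holds raw counts and FPKM per gene and steer. The deposited FPKM equals the count over gene length and library total, divided by 1 constant per steer (0.730 to 1.25). Its gene names, lengths and coordinates are the authors'. A further GLP-2 steer was not analysed here, and RNA integrity per steer was not used here.

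Counts were tested in R 4.3.3 with edgeR 4.0.16 (TMM, filterByExpr with a minimum count of 10, quasi-likelihood test, Benjamini-Hochberg over all genes tested, threshold 0.05) for GLP-2 against BSA over both infusions and for casein against water over both injections, and in a model of 4 treatments for pairwise differences and the interaction. DESeq2 1.42.0, limma 3.58.1 on log2(FPKM + 1) and log2(FPKM + 0.1), other scalings, no filter, the block, marker scores as covariates and each steer left out were alternatives; the sum of the SLC2A5 rows and the omission of the 4 follicle-rich steers were chosen after seeing the data. The tests were checked on simulated counts. Ratios used log2(FPKM + 0.1) and 100000 resamples (scipy 1.17.1). The log2 CPM used a prior count of 2. Same-block steers share a BW block by the labels; their deviations from the treatment means correlated at a mean r of 0.029 over 30 pairs, and -0.00584 over 151 other pairs.

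The members and gene lists were chosen with earlier results of these data known, and so were the lists' tests. Named genes were the 4 members, genes of the family, sodium pump, carbohydrase and transcription factor lists, of other pathway lists up to 4 genes with the highest mean FPKM and up to 4 past the threshold by smallest p, and for each member the 5 genes of highest rho. Marker genes of cell types were named for their lists. Some genes that this rule names are not reported here. Of the other GLUT, other SGLT and sodium pump lists, 10 genes each were in the table; 17 transcription factor genes and 4 carbohydrase genes were. Intervals of shares cover counting error only. Steers are separate animals, with 1 library each.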

Additional observations from a re-analysis of the deposited data

Results flagged for a closer look

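Within treatments of 5 or 6 steers, 28 sets of values were searched for a steer far from the others by Dixon's test, which by chance marks about 1 set in 20, and 5 were marked. On the chromosome 14 row of SLC2A5, casein + GLP-2 steer 4 was lowest with -1.67 log2 CPM, where the next steer had 2.91. On the chromosome 16 row GLP-2 steer 3 was lowest with -1.04 log2 CPM (next steer 3.37), and casein + GLP-2 steer 1 was lowest with -1.44 log2 CPM (next steer 3.99). The same GLP-2 steer 3 had 0.75% of its SLC2A5 counts on chromosome 16, where the next of its treatment had 54.7%. The log2 ratio of SLC2A2 to SLC5A1 was lowest in casein + GLP-2 steer 1 with -3.64, where the next steer had -2.89; this steer also had the highest SLC5A1 of the 22 steers.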

How the results depend on the processing

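The GLP-2 against BSA difference of SLC5A1 kept its direction in every fit. With the replicate block it was 1.69 and lost the call, as it did with the follicle (0.71), pan-epithelial (0.75) or villus score (0.70) as a covariate and without the follicle-rich steers (1.19); leaving out 1 steer gave 1.35 to 1.80. SLC2A2 passed with limma (2.00 on log2(FPKM + 0.1), 1.81 on log2(FPKM + 1)); leaving out 1 steer gave 1.12 to 1.75. Against 1881 genes called in the main test, DESeq2 called 2999, an adjusted p up to 0.1 gave 3633, the replicate block 689, and each of the 3 scores or the omission of the follicle-rich steers 0. The main count held 715 higher and 1166 lower genes, limma on log2(FPKM + 1) 1210 and 882, and the block 351 and 338. Leaving out 1 steer gave 634 (casein + GLP-2 steer 3) to 3516 (control steer 2), and moved the count by over 1.5 times also without control steers 1, 3 and 5, casein steers 1, 3 and 6, GLP-2 steers 3 and 6, and casein + GLP-2 steers 1 and 2. The block changed no other call of a member.

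In the other comparisons, where edgeR called 0, DESeq2 called 289 for GLP-2 against control, 891 for casein + GLP-2 against casein, 10 for casein against control, 2 for the interaction, 5 for casein against water and 5 for casein + GLP-2 against GLP-2. A fit of only the 2 treatments gave 1 for casein + GLP-2 against GLP-2, and an adjusted p up to 0.1 gave 1 for casein + GLP-2 against casein. Leaving out 1 steer gave 0 to 429 for GLP-2 against control, 0 to 1 for casein + GLP-2 against casein or against GLP-2, and 0 to 3 ratios. The relations past the threshold were 15 of 27 with deviations or FPKM, 15 to 17 with 1 steer left out and 12 without the follicle-rich steers.

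Directions turned only for values that had not passed. For GLP-2 against control, SLC5A1 was -0.48, -0.17 and -0.33 with the follicle, pan-epithelial and villus scores and -0.30 without the follicle-rich steers, SLC2A2 -0.61 with the follicle score and -0.12 without those steers, and the chromosome 16 row -1.51 and -0.23. For casein against control, SLC2A2 was -0.13 with the follicle score and -0.27 without those steers. The chromosome 14 row was -0.028 (limma, log2(FPKM + 0.1)) and -0.20 (pan-epithelial score) for GLP-2 against BSA, and -0.070 (limma, log2(FPKM + 0.1)) for casein against water. For casein + GLP-2 against casein it was -0.10, -0.38 and -0.22 with the follicle, pan-epithelial and villus scores, -0.66 and -0.27 with limma on log2(FPKM + 0.1) and log2(FPKM + 1), and -0.076 with the replicate block. Its rho with the smooth muscle score was 0.0464 without the follicle-rich steers. The chromosome 16 row was -0.53 (follicle score), -0.51 and -0.012 (limma, both scales) for casein against water, and its ratios to SLC2A2 and SLC5A1 were -0.19 and -0.11 with log2(FPKM + 1). With 1 steer left out, SLC5A1 was -0.79 to 0.19 and SLC2A2 -0.24 to 1.18 for casein against control, SLC2A2 -0.12 to 1.29 for the interaction, the chromosome 14 row -0.51 to 0.41 for casein + GLP-2 against casein, -0.83 to 0.47 for the same treatment against GLP-2 and -0.15 to 0.55 for casein against water, and the chromosome 16 row -1.66 to 0.44 for casein against control. The cause of these changes was not tested. With 5 or 6 steers a treatment and low counts of the SLC2A5 rows, their single values carried SE of 0.459 and 0.904 even in the pooled comparison.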

Other observations

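Levels of the genes that phosphorylate hexoses and break down fructose varied widely. Among the most abundant, KHK (ketohexokinase) averaged 157 ± 53.2 FPKM over the 22 steers, GALM (galactose mutarotase) 102 ± 35.9 FPKM and FBP1 (fructose 1,6-bisphosphatase) 40.2 ± 14.8 FPKM. Of the 17 genes of this list tested for GLP-2 against BSA, only HK2 (hexokinase 2) passed, with a log2 fold change of 0.82 (SE 0.25, adjusted p = 0.0360 in edgeR), and its mean FPKM was 3.78 ± 1.43 with BSA and 6.64 ± 3.44 with GLP-2. Over all genes tested 5.13% were called higher, so 1 of 17 was near the general share. KHK had 0.41 (adjusted p = 0.207), and the median of the list was 0.42.

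Of 9 tested genes for hexose sensing and the regulation of SGLT1, VIPR1, a receptor of vasoactive intestinal peptide, rose with GLP-2 by a log2 fold change of 0.85 (SE 0.24, adjusted p = 0.0274 in edgeR), and PRKCB, a protein kinase C, fell by 0.57 (SE 0.18, adjusted p = 0.0423). The other genes of this list did not pass. Over all genes tested 13.5% were called, and the list was not tested against that share. TXNIP, a target gene of glucose-responsive transcription, had nearly equal means of 148 ± 25.9 FPKM with BSA and 149 ± 28.8 FPKM with GLP-2 (log2 fold change 0.01, adjusted p = 0.962). PDZK1, a scaffold protein of the brush border, averaged 122 ± 83.7 FPKM and had a log2 fold change of 1.05 (adjusted p = 0.106).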
